A study of Homo sapiens with 12 samples.

Results

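The enzymes that make 1-methylguanosine (m1G) in tRNA, and those that convert the m1G next to the anticodon into wybutosine, were examined as 8 genes: TRMT5, TRMT10A, TRMT10B, TRMT10C, TYW1, TRMT12 (TYW2 in the RefSeq gene table), TYW3 and LCMT2. Each gene was looked up by its GRCh38 span in both deposited peak lists, whether or not it held a peak. The 8 genes held 3 of the 9585 peaks of the MetDiff list, all in TRMT5, and 0 of the 3705 summits of the MACS2 list. They were set beside all 20052 protein-coding genes of the table.

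The study sequenced poly(A)-enriched, fragmented RNA from PANC-1 cells, an established line derived from a human pancreatic ductal adenocarcinoma. The 12 libraries, all of experiment 2, formed 4 groups of 3: RNA precipitated with an anti-m1G antibody from TRMT5 knockdown cells, precipitated RNA from control cells, input RNA from knockdown cells, and input RNA from control cells. Cells were transfected with siRNAs, TRMT5 depletion lasted 4 days, and the labels call the control "WT" without naming its siRNA. Both lists were taken as lists of the whole series, because no column names a sample. No value below can be assigned to a single library or read as a difference between knockdown and control cells. The libraries behind the calls were not given, and the read depth behind the peaks is unknown. Whether the 3 libraries of a group came from different cultures is not stated. Of 4 ductal keratins chosen to check the cell type, KRT8, KRT18 and KRT19 held MetDiff peaks and KRT7 held 0, and 0 of 7 acinar, islet and immune markers held a peak in either list.

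m1G is a guanosine methylated on the face that pairs with other bases. At position 37, beside the anticodon, TRMT5 makes it in both cytosolic and mitochondrial tRNAs, where it helps the ribosome keep the reading frame. In cytosolic phenylalanine tRNA the same m1G37 is the starting point of wybutosine, a bulky fluorescent base. TYW1 closes an extra ring on the m1G, TRMT12 adds a carbon side chain, TYW3 methylates the ring system and LCMT2 (TYW4) finishes the side chain, an order worked out largely in yeast. The TRMT10 family acts elsewhere on the tRNA, at position 9. The peaks below concern the mRNAs that encode these enzymes, not the tRNAs they modify.

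Of the 8 genes, 1 held a MetDiff peak, against 21.8% of protein-coding genes (4372 of 20052), and 0 held a summit, against 9.46% (1896 of 20052). With 8 genes these counts lie near the background, and they are not a result about the pathway as a group. Of the 4 writers of m1G, TRMT5 held peaks and the 3 TRMT10 genes did not. Of the 4 later wybutosine enzymes, 0 held a peak. No expression table was used, so an mRNA without a peak cannot be told apart from an mRNA that was too scarce to be called.

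TRMT5 is the gene targeted by the siRNA, and the series holds libraries of knockdown cells. Whether the depletion bears on its peak values, here and in the rankings below, was not tested. Its span lies on the minus strand of chromosome 14, from 60971441 to 60981690 in GRCh38, and covers 10250 bases. The 3 peaks carried 1 Ensembl gene ID and consisted of 6 exon blocks, the stretches of exon that the list joins into a peak. The peak nearest the 5′ end of the gene (60979567 to 60979865) was 1 block of 299 bases, lying 1825 to 2123 bases from that end, with a fold of 7.11. The fold is the authors' value and was read as enrichment of precipitated over input RNA from its place in a table without a header.

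The middle peak (60975893 to 60979468) joined 3 blocks of 238, 125 and 234 bases, the first of them 2222 and the last 5797 bases from the 5′ end at their outer edges, and had a fold of 11.8. The peak nearest the 3′ end (60975116 to 60975794) joined 2 blocks of 320 and 79 bases, reaching 6574 bases from the 5′ end, and had the highest fold, 17.8. The fold thus increased from peak to peak along the transcript from its 5′ to its 3′ side. Among the 564 gene IDs with exactly 3 peaks, TRMT5 included, 88 had folds in this increasing order (15.6%), 105 in the decreasing order (18.6%) and 371 in neither.

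**Figure D1:**
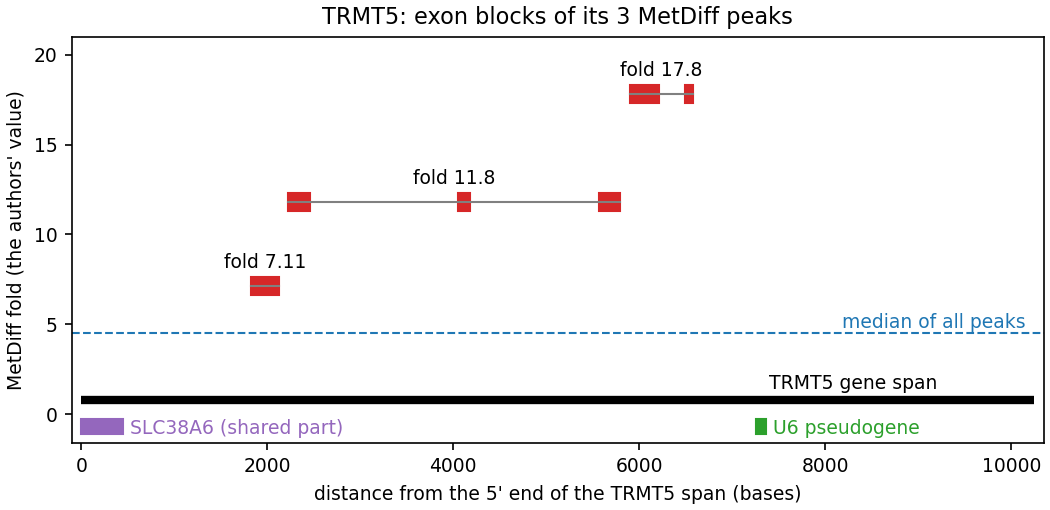
Exon blocks of the TRMT5 MetDiff peaks (red boxes, joined by a grey line within a peak) by distance from the 5′ end of the gene span in bases, with the authors' fold on the vertical axis. The folds are 7.11, 11.8 and 17.8 from the 5′ side on, all above the median of all peaks (dashed, 4.5), and the black bar is the gene span with the parts shared with SLC38A6 (purple) and a U6 pseudogene (green) below it.

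All 3 peaks had the same p-value of 1.6e-07 in the authors' list, and an FDR of 2.45e-06. In 42 of the 564 IDs with 3 peaks (7.45%) the peaks shared a single p-value. A gap of 98 bases separated each TRMT5 peak from its neighbour. Across the list, 334 of 5070 neighbouring peak pairs of an ID were 90 to 110 bases apart, and 251 of those 334 pairs (75.1%) also had equal p-values. The combination of both such gaps with a single p-value occurred in 4 of the 564 IDs with 3 peaks, TRMT5 included. These features were picked out after the TRMT5 peaks had been seen.

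The TRMT5 peaks were long as well as strong. The middle peak covered 597 exonic bases, a length reached by 16 of 9585 peaks (0.167%), and the peak at the 3′ side covered 399 bases, reached by 130 (1.36%), where the median peak covered 101. The fold of 17.8 was reached by 213 peaks (2.22%), that of 11.8 by 755 (7.88%) and that of 7.11 by 2340 (24.4%), where the median was 4.5. The FDR of the TRMT5 peaks was less extreme, since 13.4% of all peaks had one at least as low.

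Per gene, the 3 peaks summed to 1295 exonic bases, a sum reached by 59 of 4515 gene IDs (1.31%), where the median was 202. The median fold of the TRMT5 peaks, 11.8, was reached by 291 IDs (6.45%), where the median was 4.73. Only 1 ID, that of TRMT5, reached both values at once. Being matched by no other ID in both measures held for 15 IDs of the list, TRMT5 among them.

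**Figure D2:**
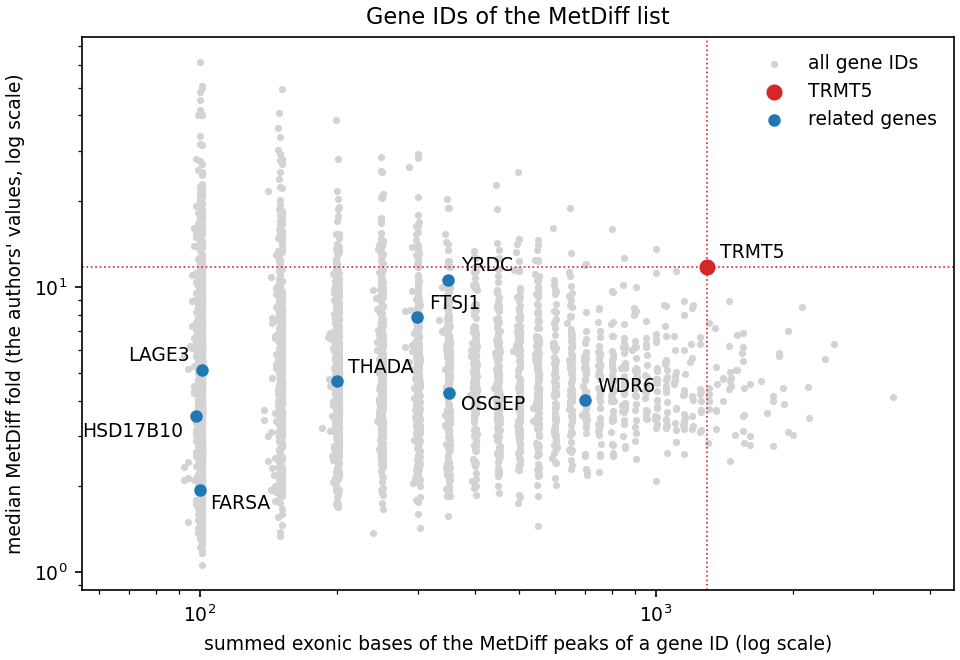
Each grey point is 1 of 4515 gene IDs of the MetDiff list, by the summed exonic bases of its peaks (horizontal, log scale) and the median of the authors' folds (vertical, log scale). TRMT5 (red, 1295 bases, median fold 11.8) is the only point in the upper right quadrant drawn through its own values (dotted lines), while the related genes with a peak (blue) lie below its median fold.

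Among the 564 IDs with 3 peaks, HPCAL1, TEDC1 and B4GALT2 were the genes most like TRMT5 that could be named. Likeness was measured by distance on the log2 scale in median fold and summed exonic bases. HPCAL1, a neuronal calcium sensor family gene (chromosome 2, 10302904 to 10427604), was the nearest of these at a distance of 0.42, with a median fold of 13.6 over 1001 bases. TEDC1, a centriole gene, had a median fold of 10.0 over 902 bases, and B4GALT2, a galactosyltransferase gene, had 10.2 over 846 bases. The HPCAL1 folds increased toward the 3′ side as in TRMT5, and those of TEDC1 and B4GALT2 decreased. HPCAL1 held 0 summits, TEDC1 held 3 and B4GALT2 held 2. These 3 genes were named by position and strand.

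The TRMT5 peaks took up the middle of the gene. They extended over 4750 bases of the genome (46.3% of the span), with 1825 bases free of peaks at the 5′ side and 3675 at the 3′ side. Exon positions were not used here, so whether these flanks hold exons, and whether the blocks lie in coding or untranslated sequence, is not known. The first 446 bases of the TRMT5 span are shared with SLC38A6, an amino acid transporter gene, and a pseudogene of U6 small nuclear RNA lies toward the 3′ end, and no TRMT5 block overlapped either.

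The MACS2 list, which gives the position of a summit and a −log10 value taken as that of a q-value, held no summit in TRMT5. The nearest summit outside the gene lay 2746292 bases from its span, in SGPP1, a sphingosine phosphatase gene. Absence of a summit was common among genes of the MetDiff list: 2857 of 4515 IDs (63.3%) had none between their outermost peaks, extended by 150 bases on each side. Among IDs closer to TRMT5 in their peaks, none was found for 52.5% of the 564 IDs with 3 peaks, 39.2% of the 291 IDs with at least its median fold and 22.0% of the 59 IDs with at least its summed length. IDs with more or longer peaks also cover more sequence in which a summit can fall, and the differences between these shares were not tested. The lists may rest on the same libraries.

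Among the TRMT10 genes, 0 of 3 held a MetDiff peak or a summit, beside 21.8% and 9.46% of all protein-coding genes. With 3 genes this is not read as a result. TRMT10A methylates cytosolic tRNAs at position 9 and lies on chromosome 4 (99546711 to 99564039). The nearest MetDiff block lay 385625 bases away in the histone gene H2AZ1 (fold 1.41), and the nearest summit 9060980 bases away in RPL34. TRMT10B, a paralog of the same family on chromosome 9 (37752901 to 37778972), had its nearest block 240863 bases away in FBXO10 and its nearest summit 323353 bases away in GRHPR. TRMT10C methylates mitochondrial tRNAs and is a subunit of mitochondrial RNase P, the enzyme that trims the 5′ ends of those tRNAs. Its span on chromosome 3 (101561868 to 101566446) was 1160879 bases from the nearest block, in TOMM70, and 1743997 bases from the nearest summit.

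The enzymes that act on m1G37 after TRMT5 were also without peaks. TYW1 has the longest span of the 8 genes, 242682 bases on chromosome 7 (66996833 to 67239514), and held 0 blocks and 0 summits. Its nearest block lay 40376 bases away in TMEM248 (fold 3.25) and its nearest summit 904187 bases away in ASL. TYW1B, a near-identical copy of TYW1 elsewhere on chromosome 7, held 0 peaks of either kind as well, and reads may be shared between these copies. The TRMT12 span of 2207 bases on chromosome 8 had the closest neighbours of all, a block 21912 bases away in RNF139 (fold 9.29) and a summit 93912 bases away in NDUFB9.

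TYW3 (chromosome 1, 74733152 to 74766677) lay 533464 bases from the nearest block, in FPGT and the read-through gene FPGT-TNNI3K, and 1933331 bases from the nearest summit. LCMT2 (chromosome 15, 43323649 to 43330573), whose span overlaps that of MAPDA at one end, lay 82695 bases from the nearest block, in TP53BP1 (fold 3.0), and 415789 bases from the nearest summit. No called block or summit therefore lay just outside the span of a gene without one. These distances do not show whether signal within a span fell short of being called. The 7 genes without a MetDiff peak were between 21912 and 1160879 bases from the nearest block, with a median of 240863, against a median of 183432 over 15611 protein-coding genes without a peak (middle 50% of genes, 39075 to 623072). For summits, all 8 genes were between 93912 and 9060980 bases away, with a median of 1324092, against a median of 393645 over 18150 genes without a summit (middle 50% of genes, 88839 to 1325224). These medians leave out 69 of 15680 genes without a peak and 6 of 18156 genes without a summit, which lie on a chromosome or sequence where the list held no entry and so have no distance.

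**Figure D3:**
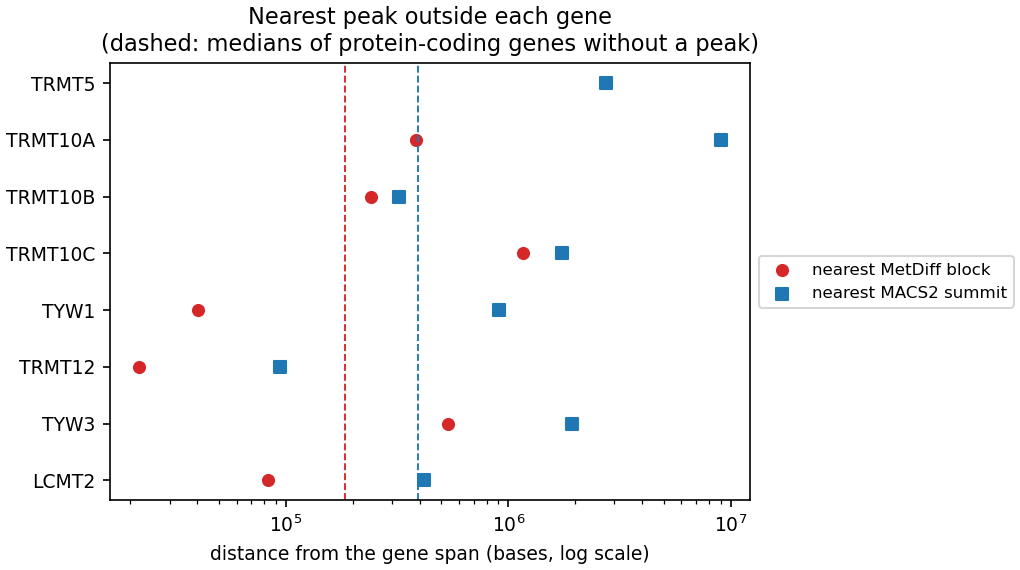
Distance in bases (log scale) from the span of each of the 8 genes to the nearest MetDiff block (red circles) and MACS2 summit (blue squares) outside it; dashed lines are the medians over protein-coding genes without a peak of that kind, 183432 and 393645 bases. TRMT5 has no red circle because its blocks lie inside its span, and the closest block to any other of these genes is 21912 bases away, at TRMT12.

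By span length, the share of protein-coding genes with a MetDiff peak was 17.8% for spans up to 10 kb (3 of the 8 genes lie in this class), 25.1% between 10 and 50 kb (4 of the 8, with TRMT5) and 21.2% above 50 kb (TYW1).

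Partners and neighbouring steps of the pathway were examined as a list of 9 genes, of which 5 held a MetDiff peak and 2 a summit, beside 21.8% and 9.46% of all protein-coding genes. FTSJ1 and its partners THADA and WDR6, which 2′-O-methylate the anticodon loop of tRNAs, including phenylalanine tRNA, all held MetDiff peaks. FTSJ1 had 2 peaks with folds of 9.9 and 5.81, the second with the lowest FDR of the 20 related genes, 2.4e-09. WDR6 had 5 peaks with folds of 3.17, 4.1, 3.62, 10.0 and 4.01 from its 5′ to its 3′ side, and 5 summits with −log10 q between 3.14 and 16.3. The strongest WDR6 summit lay inside the block of the peak with fold 10.0. THADA had 2 peaks with folds of 6.69 and 2.69, the first 54750 bases from its 5′ end and the second at its 3′ end, and 0 summits.

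Of the other subunits of mitochondrial RNase P, HSD17B10, a dehydrogenase that binds TRMT10C, had 1 peak with a fold of 3.54 and a summit with −log10 q of 6.86 that lay 66 bases from the block. PRORP, the nuclease subunit, held 0 of either. Of the 3 subunit genes, 1 thus had a MetDiff peak, beside 21.8% of all protein-coding genes. FARSA, the alpha subunit of the synthetase that charges the tRNA carrying wybutosine, had a peak with a low fold of 1.94 (FDR 0.00977), and FARSB, its beta subunit, had 0. TYW5, which hydroxylates the wybutosine side chain, held 0 peaks and 0 summits. TRMT5 was thus the 1 gene of the 6 from m1G37 to hydroxywybutosine with a MetDiff peak, beside 21.8% of all protein-coding genes. With so few genes, neither this count nor that of the RNase P subunits is read as a result.

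Position 37 carries other modifications in other tRNAs, and of 11 genes for these, 3 held a MetDiff peak (27.3%, near the 21.8% of all protein-coding genes) and 3 a summit (27.3%, beside 9.46%), the same 3 genes. They are YRDC, OSGEP and LAGE3, genes of the synthesis of t6A, a threonine-derived modification of adenosine 37; the list itself holds 5 cytosolic t6A genes. YRDC, which makes the activated threonine intermediate, had a peak with a fold of 10.6 on its own strand. A further peak on the opposite strand in its span (fold 9.1) carried another gene ID and overlapped C1orf122, and the YRDC summit (−log10 q of 6.42) lay in the sequence shared by both genes. OSGEP, the catalytic subunit of the complex that attaches the threonine group, had folds of 5.14 and 3.36 and a summit with −log10 q of 12.2. LAGE3, of the same complex, had a fold of 5.13 and the strongest summit of the 20 related genes, with −log10 q of 27.8. TPRKB and TP53RK of that complex, and TRIT1, CDK5RAP1, CDKAL1, OSGEPL1, TRMO and ADAT1, which serve other steps or modifications at that position, held 0 peaks.

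Over both related lists, 8 of 20 genes held a MetDiff peak (40%, beside 21.8% of all protein-coding genes) and 5 a summit (25%, beside 9.46%). These lists were chosen with earlier results known, and nothing is read from their shares. The 8 genes with a peak all had a lower highest fold than TRMT5, between 1.94 in FARSA and 10.6 in YRDC, and a smaller summed length, up to 699 bases in WDR6. The 5 genes with a summit had a MetDiff peak as well. FTSJ1, THADA and FARSA, like TRMT5, held MetDiff peaks without a summit. The differences in counts between the 8 pathway genes and the related lists were not tested.

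**Figure D4:**
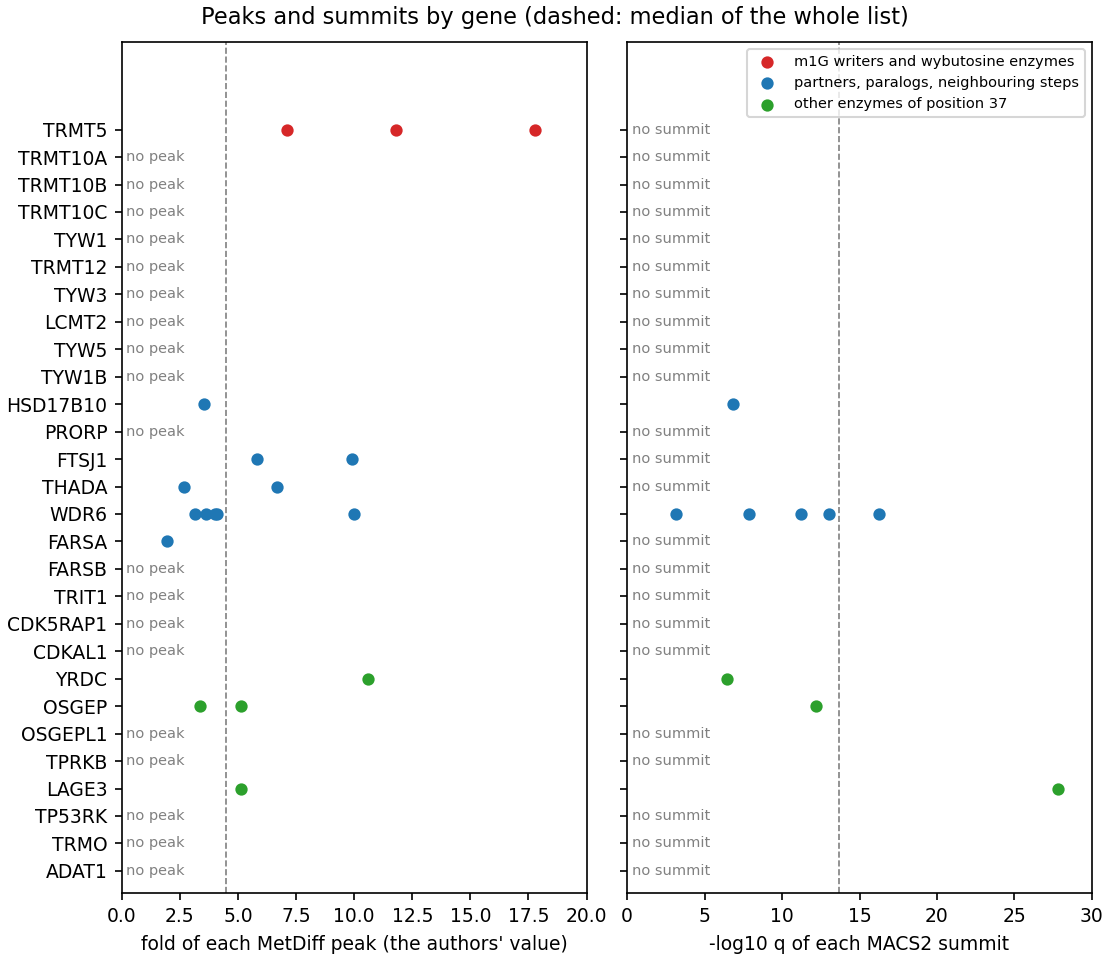
Authors' fold of each MetDiff peak (left, peaks on the strand of the gene) and −log10 q of each MACS2 summit (right) for the 8 m1G and wybutosine genes (red), 9 partners, paralogs and neighbouring steps (blue) and 11 other enzymes of position 37 (green). TRMT5 is the only red gene with points, its folds of 7.11 to 17.8 include the highest of all genes shown, and the dashed lines mark the medians of the whole lists (4.5 and 13.7).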

How the data were processed

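Per the submitters' processing notes, tools included STAR 2.7.1, MACS2 2.2.5, featureCounts, edgeR and DESeq2 with GRCh38, without role or order; the libraries behind the calls, pooling and settings were not given in the sources used here. Neither deposited list has a header, and units were read from layout and values. The deposited MACS2 list gives summits with a −log10 value (smallest 1.35, taken as −log10 q). The deposited MetDiff list gives a p-value per peak, an FDR as log10, and a ratio read as fold of precipitated RNA over input; the ratio was under 1 in 0 peaks, and another contrast is not excluded.

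A gene held a peak when an exon block overlapped its RefSeq span (GRCh38.p14), and a summit when the summit lay inside it. TRMT12 was matched through its synonym. Strand was known for 6 of the 8 genes. No difference between groups was tested, since no column is named as one, and no depth is known. Named genes are the 8 members, the 20 genes of both related lists and the 3 genes nearest TRMT5 (same number of peaks, Euclidean distance over log2 median fold and log2 summed bases). Members and lists were chosen with earlier results of these data known. Python 3.11.15 and pandas 2.3.3 were used.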

Additional observations from a re-analysis of the deposited data

How the results depend on the processing

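The count of 1 of 8 genes with a MetDiff peak stayed at 1 with a sole gene at the peak, FDR under 0.01 or 0.001, a fold of at least 2 or 4, the strand of the gene, and blocks within 150 bases; the last 2 were chosen after seeing the data. The count of genes with a summit stayed at 0 under each of its 4 alternatives, as did summits near a member's block. The sole-gene rule and the q limits only remove summits, so they could not raise a count of 0. The closest summit to any of the 8 genes lay 93912 bases away, so an extension by 150 bases could not either. This stability therefore adds no support. The background of 4372 genes ranged from 3365 (fold of at least 4, 16.8%) to 4238 (fold of at least 2), and was 3484 with strand, which is known for 15842 of 20052 genes. That of 1896 genes with a summit ranged from 1655 (sole gene) to 2012 (span extended by 150 bases). By highest instead of median fold, 4.63% instead of 6.45% of gene IDs reached TRMT5. Naming by Ensembl ID was not run, because the table used pairs no such IDs. No paired analysis was possible because the lists hold no value per library; for the same reason no replicate was left out. The unknown depth limits what the absence of a peak shows.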
